A study of Mus musculus with 2 samples.

Results

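The enzymes described here make, move or release acetyl-CoA, and 8 genes from a fixed list (Acss2, Acss1, Acly, Slc25a1, Crat, Acat1, Acat2 and Acot8) were followed among the 31053 genes of a single-cell matrix from mouse tumours. All 8 were found in the matrix by symbol. The title of the study concerns inhibition of ACSS2 in triple negative breast cancer. Its samples were 3 ACSS2i (ACSS2 inhibitor) tumours and 3 vehicle tumours, from which 4000 to 6000 live cells each were pooled onto 1 lane of a droplet platform. The strain is given only as "NGS mouse", and the design text speaks of Bmal1 status, which the labels of the pool do not mention. The sources used here give neither the age of the mice, nor the dose and duration of the inhibitor, nor where the tumour cells came from.

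The pool was read as 1 matrix of counts of unique molecular identifiers (UMIs, each standing for 1 captured RNA molecule, read at the 3′ end) with 6 antibody tags named U2, U3, U4, D0, D1 and D4. The sources used here do not tie a tag to ACSS2i or vehicle, so these arms could not be compared. Values are given singly for each of the 6 tags, with no arm attached. The comparisons are between cell classes of the pool and between states of the tumour cells. Cells are not replicates, so every interval below is a 95% counting interval and covers counting error only. A test over the tags, each giving a pair of a class or upper bin and its reference, was added after the values had been seen. It used edgeR's quasi-likelihood test on summed UMIs with the tag as a block and Benjamini-Hochberg adjustment over all genes tested. Its adjusted p-values are those given below. They rest on a spread between tags, of unknown arms and without the untagged cells, that edgeR pools largely across genes. The spread of a single gene over its tags thus enters little.

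Acetyl-CoA is the activated form of acetate from which cells build fatty acids and sterols and with which they acetylate proteins. It does not cross the inner mitochondrial membrane. Cells therefore export it as citrate, through the carrier made by Slc25a1, and the enzyme made by Acly splits the citrate again in the cytosol. The enzyme made by Acss2 joins free acetate to coenzyme A in cytosol and nucleus, and the enzyme of Acss1 does the same in mitochondria. Crat encodes carnitine acetyltransferase, which passes acetyl groups between coenzyme A and carnitine. Acat1 and Acat2 encode the acetoacetyl-CoA thiolases of mitochondria and cytosol, and the cytosolic one opens sterol synthesis by joining acetyl-CoA units. Acot8 encodes a peroxisomal thioesterase that releases coenzyme A from acyl-CoAs. Tumour cells short of oxygen or lipid are known to draw on acetate through ACSS2.

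Of 9747 barcodes with 187339115 gene UMIs, 7919 cells were kept, after removal of barcodes with under 500 genes or at least 15% mitochondrial UMIs and of 865 cells that carried more than 1 tag. The tumour class was defined by at least 3 UMIs of the keratin genes Krt8 and Krt18 and none of Ptprc, the T class by at least 2 UMIs of the Cd3 genes, the NK class by Ncr1 or Klrb1c without Cd3, and the macrophage class by at least 3 UMIs of the C1q genes. These rules gave 730 T cells, 121 NK cells, 396 macrophages and 5212 tumour cells, with 2108877, 635346, 2725811 and 139545308 gene UMIs. A further 51 cells met more than 1 rule and were set aside, and 1409 met none. The depth was unequal, with a median of 1648 UMIs in T cells, 3359 in NK cells, 4326 in macrophages and 25138 in tumour cells.

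Markers that the rules did not use were highest in the T, NK and macrophage classes they belong to. The 7 further T cell genes summed to 2435 CPM (UMIs of a gene per 1000000 gene UMIs of the class) in T cells, 779.1 in NK cells, 7.34 in macrophages and 2.78 in tumour cells. The 6 further NK genes reached 6784 CPM in NK cells and the 7 macrophage genes 13239 CPM in macrophages. In the tumour class the transcription factor gene Sox9 stood at 760.0 CPM, against 207.8 to 320.3 CPM in the immune classes. The epithelial genes Epcam and Cdh1, in contrast, were near 0 in tumour cells, at 0.00717 and 0.0430 CPM, and Krt7, Krt19 and Krt5 were below 0.1 CPM. Epcam and Cdh1 were higher in the immune classes, at 8.54 to 18.9 CPM and 10.4 to 30.1 CPM. Of the 5 genes on the fibroblast list, the proteoglycan gene Dcn was highest in tumour cells, at 2580 CPM, and Pdgfra stood at 13.4 CPM there. The other 3 were highest in the T class, with 306.3 CPM of Col1a1, 226.7 of Col1a2 and 32.7 of Lum, against 29.2, 5.08 and 0.315 CPM in tumour cells. They lay in 25 of the 730 T cells. Tumour cells in this text are thus the cells that met the keratin rule, not cells shown to be epithelial by other genes.

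Keratin RNA was also present in the immune classes. Krt8 and Krt18 together were at 33.9% of the tumour level in T cells, 27.5% in NK cells and 30.7% in macrophages, mostly in 29 T cells, 8 NK cells and 39 macrophages with at least 3 keratin UMIs. Those cells held 33.1%, 32.6% and 40.3% of the UMIs of their classes. Without them the keratin level was 5.85%, 2.24% and 3.13% of that in tumour cells. Class results below are for all cells unless it is said that keratin-bearing cells (at least 3 keratin UMIs) were left out. Of the tumour cells, 1850 (35.5%) carried no tag, against none of the T cells or macrophages and 1 NK cell. The pooled values of tumour cells include these cells and the values per tag do not.

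All 8 genes are protein-coding on GRCm38 in the GENCODE M21 annotation. Acss2 lies on chromosome 2, plus strand, from 155517948 to 155585724, and Acss1 on chromosome 2, minus strand, from 150618105 to 150668500. Crat (30400471 to 30415813) and Acot8 (164792765 to 164804882) are on chromosome 2 as well, both on the minus strand. Acly lies on chromosome 11 from 100476353 to 100528000, Slc25a1 on chromosome 16 from 17925223 to 17928219, Acat1 on chromosome 9 from 53580522 to 53610382 and Acat2 on chromosome 17 from 12942890 to 12960747, all on the minus strand. Gss, for glutathione synthetase, overlaps the Acss2 span on the opposite strand by 22544 bases, and the sources used here do not say how strand was handled in the counting. Ggt7 overlaps it on that strand by 290 bases, with 3 UMIs in T cells (1.42 CPM, 0.293 to 4.16) and 1 UMI in tumour cells (0.00717 CPM), the same order as Acss2. Gss had the reverse order between these classes, with 8.54 CPM (5.06 to 13.5) in T cells and 14.8 CPM (14.2 to 15.5) in tumour cells. The antisense gene Acss2os had 0 UMIs in every class. Acat3, a paralogue of Acat2, had 182 UMIs in tumour cells against 3911 of Acat2, and reads shared between such copies may be split or lost.

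The promoters of Acss2, Acly, Slc25a1 and Acat2 are shown because these 4 members were together past the fold used below in tumour cells with many transcripts of sterol synthesis. Each is the 250 bases before the RefSeq start on GRCm38.p6, written on the gene's own strand, and RefSeq promoters were matched for 6 of the 8 members (not Crat or Acat1). Capitals mark matches on either strand of ACGTG (the core of hypoxia response elements), of CACGTG (the E-box that BMAL1 and other factors bind, which contains ACGTG on both strands) and of CCAAT (the NF-Y box, a motif added after the expression values had been seen).
Acss2, chr2:155517793-155518042, plus strand: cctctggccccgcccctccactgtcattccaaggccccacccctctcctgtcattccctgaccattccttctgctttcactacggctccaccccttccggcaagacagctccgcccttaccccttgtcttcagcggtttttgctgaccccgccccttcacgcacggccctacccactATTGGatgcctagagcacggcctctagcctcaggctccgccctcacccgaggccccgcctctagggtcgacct
Acly, chr11:100528001-100528250, minus strand: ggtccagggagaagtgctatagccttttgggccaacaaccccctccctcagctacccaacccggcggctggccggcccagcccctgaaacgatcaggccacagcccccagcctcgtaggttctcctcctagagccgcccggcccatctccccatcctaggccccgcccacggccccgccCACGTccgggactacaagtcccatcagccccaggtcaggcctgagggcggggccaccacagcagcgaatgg
Slc25a1, chr16:17928220-17928469, minus strand: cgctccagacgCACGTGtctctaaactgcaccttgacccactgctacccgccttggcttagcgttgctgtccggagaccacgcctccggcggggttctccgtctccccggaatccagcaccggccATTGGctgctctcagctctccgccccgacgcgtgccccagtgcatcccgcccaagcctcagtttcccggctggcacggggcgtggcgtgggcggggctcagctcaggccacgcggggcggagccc
Acat2, chr17:12960726-12960975, minus strand: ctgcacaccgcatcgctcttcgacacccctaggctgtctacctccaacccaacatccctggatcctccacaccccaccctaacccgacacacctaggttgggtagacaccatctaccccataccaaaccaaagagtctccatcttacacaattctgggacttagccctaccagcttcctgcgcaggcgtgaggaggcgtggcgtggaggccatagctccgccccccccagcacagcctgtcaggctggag

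ACGTG was found in 2 of the 6 matched promoters, those of Acly (71 bases before the start) and Slc25a1. The match in Slc25a1 is the E-box CACGTG, 239 bases before the start. CCAAT was found in 3, those of Acss2 (73 bases before the start), Slc25a1 (125 bases) and Acot8. Over all 32851 promoters of the same length, 16.6% held ACGTG, 6.02% CACGTG and 33.9% CCAAT. The Acss2 and Acat2 windows held no ACGTG, which says only that these letters are not within these 250 bases.

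The first question was which cells of the tumour carry transcripts of these enzymes. A gene was counted as past the fold at a ratio of CPM of 2 or more or 0.5 or less, where at least 5 UMIs were expected in each class. In T cells none of the 6 members with enough counts passed it, while over all 10159 genes 11.3% were higher and 14.2% lower by 2-fold. In NK cells none of 6 passed, with a background of 7.31% higher and 21.0% lower. In macrophages 1 of 7 passed, Acat2, which was lower, with a background of 10.6% higher and 13.6% lower. The median ratio to tumour cells was 0.884 over the tested members in T cells (0.942 over all genes), 1.09 in NK cells (0.847) and 1.10 in macrophages (0.888). With all cells of each class, the members as a group were thus close to the tumour level, and the differences lay with single genes. These medians include the keratin-bearing cells. Without them 2 members were lower by 2-fold in T cells (Slc25a1, ratio 0.371, and Acat2, 0.354) and 1 in NK cells (Acat2, 0.250). In macrophages it was again Acat2 (0.351), and over all genes 26.4%, 32.7% and 25.4% were lower in T cells, NK cells and macrophages. Acss1 lacked the expected counts in all 3 comparisons and Acss2 in those of T and NK cells, so both are described by their values. In the test over tags, which kept genes with at least 10 summed UMIs, 2 of 8 members were higher in T cells (Acss2 and Acss1) and 1 was lower (Acat2), with 17.0% of 14237 genes higher and 17.6% lower at an adjusted p under 0.05. In macrophages 1 of 8 was higher (Acss1) and 1 lower (Acat2), with a background of 17.9% and 19.6%. In NK cells, over 3 tags, none of 7 passed in edgeR, none had an unadjusted p under 0.05, and the background was 7.16% higher and 9.48% lower.

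Acss2, for the cytosolic and nuclear acetate enzyme, was a low-count transcript in every class and was highest in T cells. It had 20 UMIs in T cells (9.48 CPM, 5.79 to 14.7), 1 UMI in NK cells (1.57 CPM, 0.0399 to 8.77), 4 UMIs in macrophages (1.47 CPM, 0.400 to 3.76) and 274 UMIs in tumour cells (1.96 CPM, 1.74 to 2.21). Among T cells the tags held 2.41 (U2), 7.63 (U3), 31.0 (U4), 14.9 (D0), 16.3 (D1) and 18.0 CPM (D4), against 1.68, 2.44, 1.93, 3.26, 1.97 and 1.56 CPM in the tumour cells of the same tags. T cells were higher in 6 of 6 tags, although 5 of these T cell values rest on 4 UMIs or fewer. Only tags U4 and D1 had T cell intervals wholly above the tumour interval of the same tag. Over the 6 tags the log2 fold change was 2.25 ± 0.50 (SE, edgeR, adjusted p = 0.00053). Of the 20 T cell UMIs, 19 lay in the 705 T cells with no UMI of Col1a1, Col1a2 or Lum, in which Acss2 was at 10.0 CPM (6.04 to 15.7).

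The ratio of Acss2 in T cells to tumour cells was 4.83 (2.90 to 7.61), and without keratin-bearing T cells it was 6.86 (4.07 to 10.9), since 19 of the 20 UMIs lay in T cells with under 3 keratin UMIs. Against macrophages it was 6.46 (2.17 to 26.0), and 21.9 (3.48 to 910.7) without keratin-bearing cells. The ratio was 1.91 (0.614 to 4.51), an interval that includes 1, when only barcodes with at least 1000 genes were used, and that minimum removes shallow T cells above all. At an equal depth of 1000 UMIs per cell, 7 of 685 T cells (1.02%, 0.412 to 2.09) and 10 of 5197 tumour cells (0.192%, 0.0923 to 0.354) had an Acss2 UMI. None of 390 macrophages had one in that draw, which allows a share of up to 0.769% at that depth, and a separate draw over the 296 macrophages with Arg1 found 1. Unthinned, the shares were 2.47% of T cells and 4.70% of tumour cells, which differ in depth by more than 10-fold. For Krt8, whose RNA T cells should not make, 8.61% of the thinned T cells had a UMI against 46.9% of tumour cells.

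Acss1, for the mitochondrial acetate enzyme, was absent from the tumour counts. Not 1 of 139545308 tumour UMIs was Acss1, in the 6 tags or in the untagged cells, which allows a level of up to 0.0215 CPM. It was present at 11 UMIs in T cells (5.22 CPM, 2.60 to 9.33), 2 UMIs in NK cells (3.15 CPM, 0.381 to 11.4) and 13 UMIs in macrophages (4.77 CPM, 2.54 to 8.16). Taken against the limit of 3 counts over the tumour class, T cells were at least 243-fold higher and macrophages at least 222-fold higher, taking their own 11 and 13 UMIs as they stand. With the counting error of those UMIs, the exact lower 95% limits of the ratios were 166.1 and 156.0. Both differences passed the test over tags (edgeR, adjusted p = 1.4e-07 in T cells and 3.3e-17 in macrophages). With so few UMIs, these p-values rest on a spread pooled across genes more than on that of Acss1 between tags. Each UMI lay in a different cell, with 11 T cells and 13 macrophages holding one. Tags U2, U3, U4 and D1 showed it in T cells, and U2, U3, D0 and D1 in macrophages. T cells and macrophages did not differ from each other beyond counting error (ratio 1.09, 0.444 to 2.65). Of the acetate enzymes, tumour cells thus showed Acss2 transcripts, no Acss1 and a single UMI of Acss3, the remaining gene of this family.

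Acly and Slc25a1, the lyase and the carrier of the citrate route, were near the tumour level in most classes. Acly had 43.2 CPM (34.7 to 53.0) in T cells, 61.4 (43.7 to 83.9) in NK cells, 53.9 (45.6 to 63.4) in macrophages and 44.4 (43.3 to 45.5) in tumour cells. Macrophages were 1.22-fold (1.03 to 1.43) above tumour cells, and 1.51-fold (1.24 to 1.82) without keratin-bearing macrophages, with higher values in 4 of 5 tags, and the difference did not pass over tags (edgeR, adjusted p = 0.327). Slc25a1 had 28.5 CPM (21.7 to 36.6) in T cells, 37.8 (24.2 to 56.2) in NK cells, 35.6 (28.9 to 43.4) in macrophages and 40.1 (39.0 to 41.1) in tumour cells.

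The Slc25a1 value of T cells depended on the keratin-bearing cells. The ratio to tumour cells was 0.710 (0.541 to 0.915) with them and 0.371 (0.230 to 0.568) without them, past 2-fold. It was lower in 4 of 6 tags. With a minimum of 1000 genes it was 0.916 (0.677 to 1.21), and over the tags it did not pass (edgeR, adjusted p = 0.0733). In macrophages the ratio was 0.888 (0.719 to 1.09), and the interval included 1.

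Crat, for carnitine acetyltransferase, was highest in macrophages. Its CPM was 9.01 (5.42 to 14.1) in T cells, 11.0 (4.43 to 22.7) in NK cells, 17.2 (12.7 to 22.9) in macrophages and 11.3 (10.8 to 11.9) in tumour cells. Macrophages were above tumour cells in 5 of 5 tags, with 17.7 (U2), 16.5 (U3), 31.9 (U4), 20.4 (D0) and 15.4 CPM (D1) against 10.8, 14.4, 11.1, 11.5 and 12.8 CPM. The ratio was 1.52 (1.11 to 2.03), and 1.79 (1.23 to 2.52) without keratin-bearing macrophages, which is below 2-fold in both forms, and it did not pass over tags (edgeR, adjusted p = 0.108). T cells were below macrophages (ratio 0.523, 0.290 to 0.908), and more so without keratin-bearing cells (0.280, 0.112 to 0.618). Against tumour cells the T cell ratio was 0.795 (0.478 to 1.25), and 0.5003 (0.216 to 0.988) without them.

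The 2 thiolase genes behaved differently from each other. Acat1, for the mitochondrial thiolase, had 40.8 CPM (32.6 to 50.4) in T cells, 55.1 (38.4 to 76.6) in NK cells, 45.5 (37.8 to 54.2) in macrophages and 41.2 (40.1 to 42.3) in tumour cells, and every interval overlapped that of tumour cells. Acat2, for the cytosolic thiolase, was highest in tumour cells, with 19.4 CPM (14.0 to 26.4) in T cells, 20.5 (10.9 to 35.0) in NK cells, 11.0 (7.43 to 15.7) in macrophages and 28.0 (27.2 to 28.9) in tumour cells.

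Macrophages were at 0.393 of the tumour level of Acat2 (0.265 to 0.562), past 2-fold. The values were 2.95 (U2), 24.8 (U3), 12.8 (U4), 0 (D0) and 14.1 CPM (D1) in macrophages against 26.5, 30.9, 29.5, 26.6 and 31.5 CPM in tumour cells. All 5 tags were lower, and under 16 alternative settings the ratio ran from 0.271 to 0.475. Over the 5 tags the log2 fold change was -1.57 ± 0.29 (SE, edgeR, adjusted p = 3.0e-07). In T cells the ratio was 0.694 (0.497 to 0.943) and lower in 6 of 6 tags (edgeR, adjusted p = 0.0466), but 0.936 (0.651 to 1.30) with a minimum of 1000 genes, an interval that includes 1. Without keratin-bearing cells it was 0.354 (0.193 to 0.595) in T cells and 0.250 (0.0515 to 0.731) in NK cells, past 2-fold in both.

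Acot8, for the peroxisomal thioesterase, did not differ between the pooled immune classes and tumour cells beyond counting error. It had 22.3 CPM (16.4 to 29.6) in T cells, 20.5 (10.9 to 35.0) in NK cells, 21.6 (16.5 to 27.9) in macrophages and 17.0 (16.3 to 17.7) in tumour cells. All 3 intervals overlapped the tumour interval. By tag the T cell values ran from 7.75 to 72.1 CPM, higher than in tumour cells in 3 of 6 tags. The T cell ratio was 1.31 (0.962 to 1.75), and 1.59 (1.09 to 2.24) without U2. It was above 1 in all 16 alternatives and did not pass over tags (edgeR, adjusted p = 0.499).

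**Figure D1:**
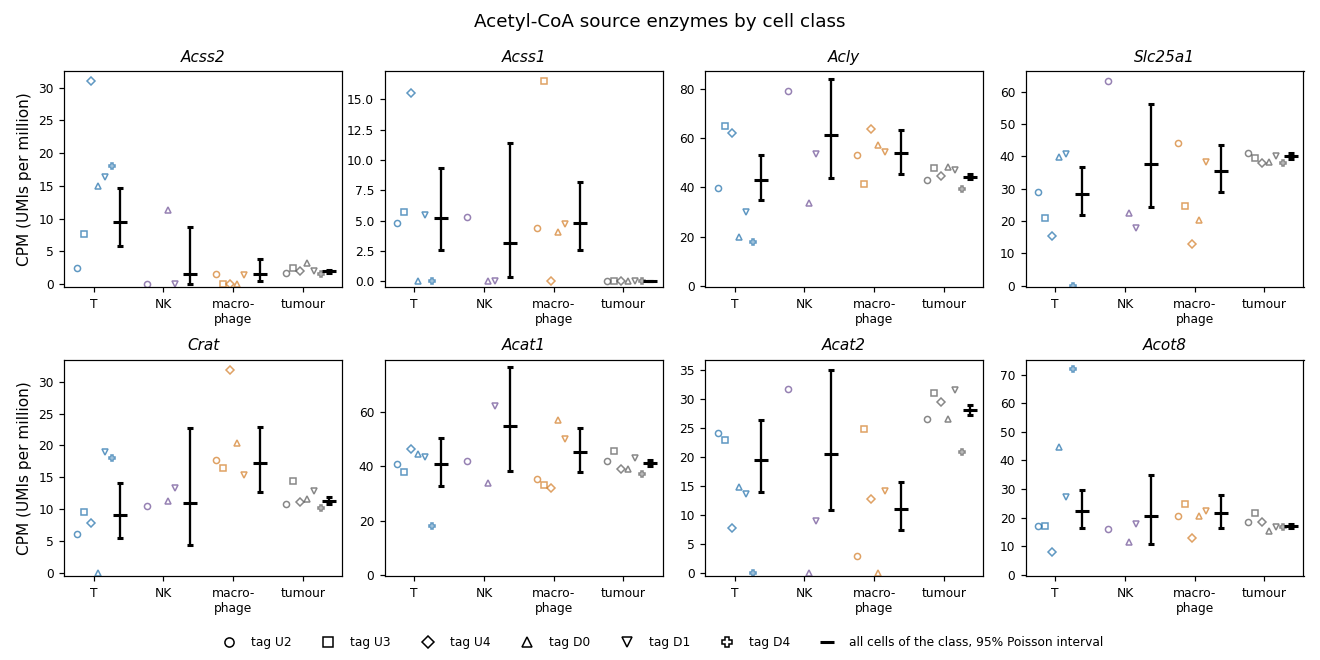
Level of each member in CPM (y axis, linear) in T cells, NK cells, macrophages and tumour cells (x axis), with open symbols for tags with at least 20 cells in the class and black bars for all cells with the exact Poisson 95% interval. Acss2 is highest in T cells (9.48 CPM), Acss1 is at 0 in tumour cells, and Acat2 is lowest in macrophages (11.0 CPM).

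**Figure D2:**
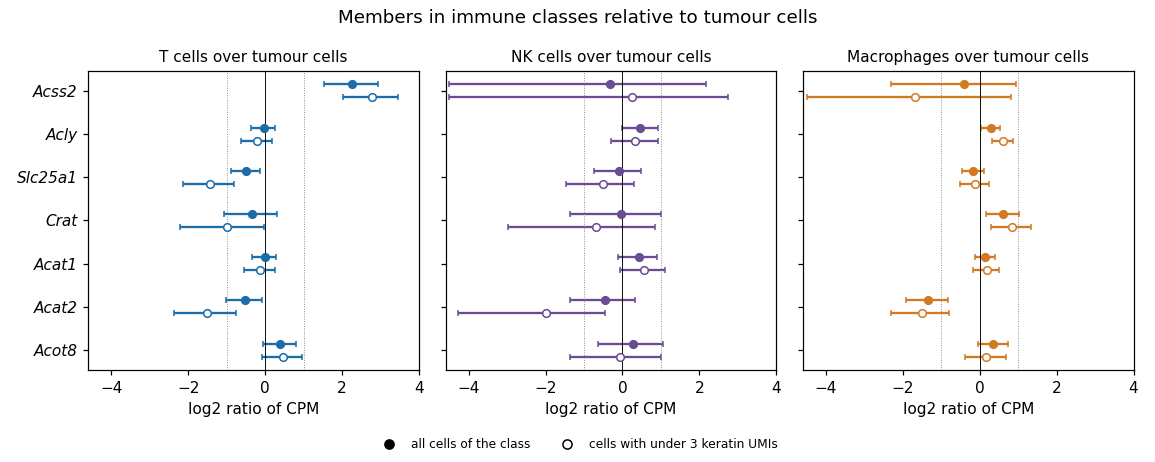
Log2 ratio of CPM (x axis) of 7 members (rows) in T cells, NK cells and macrophages over tumour cells, with 95% intervals, for all cells of the class (filled) and for cells with under 3 keratin UMIs (open). Dotted lines mark 2-fold, intervals that reach further down are cut at the left edge, and Acss1 is left out because it had no tumour UMI.

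Within the T class, the members were compared by UMIs of the cytotoxic genes Nkg7 and Gzmb, leaving out T cells with exactly 1. Acss2 was at 7.69 CPM (3.52 to 14.6) in 360 T cells with at least 2 UMIs of Nkg7 and Gzmb and at 6.05 CPM (1.65 to 15.5) in 262 T cells with none. These values rest on 9 and 4 UMIs. Both lie below the 9.48 CPM of all T cells, so Acss2 was higher in the T cells left out. Acss1 was at 5.98 CPM (2.41 to 12.3) and 4.54 CPM (0.936 to 13.3) in these groups. All 8 members had overlapping intervals between the groups, which with few UMIs does not show that the groups were alike. Within the macrophages, Acat2 was lower with Arg1, the gene of arginase 1, when all UMIs were used. It was at 7.27 CPM (4.16 to 11.8) in 299 macrophages with an Arg1 UMI and at 26.6 CPM (14.6 to 44.7) in 97 with none. Without keratin-bearing macrophages the direction was the same, at 6.21 CPM (2.68 to 12.2) and 23.5 CPM (10.1 to 46.3), from 8 UMIs each. Those intervals overlap, which is not a test of the difference. At an equal depth of 1000 UMIs, 1 of 296 macrophages with Arg1 and 0 of 94 without had an Acat2 UMI, too few to show a direction. The macrophages with Arg1 were also deeper, with a median of 4721 UMIs against 3135. The other 7 members had overlapping intervals in these 2 groups.

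The genes around the members were taken from 7 lists, and a single gene or none of the pyruvate and beta-oxidation lists passed 2-fold in T cells or macrophages. Of the users of acetyl-CoA in lipid synthesis, 5 of 11 were lower in macrophages (Hmgcs1, Idi1, Fdps, Sqle and Scd1). In NK cells it was 4 of 11 (among them Mvd, Sqle and Scd1) and in T cells 1 of 11 (Scd1). Over all genes 13.6%, 21.0% and 14.2% were lower by 2-fold in macrophages, NK cells and T cells. None of this list was higher, and its median ratio was 0.629, 0.659 and 0.616. Without keratin-bearing cells 6 of 11 were lower in macrophages, 9 of 10 in NK cells and 9 of 11 in T cells, with medians of 0.363, 0.296 and 0.287, while over all genes 25.4%, 32.7% and 26.4% were lower by 2-fold. The other list values below are for all cells of the class. Their all-gene shares are 11.3% higher and 14.2% lower in T cells and 7.31% and 21.0% in NK cells. In macrophages they are 10.6% and 13.6%. In macrophages Hmgcs1, for the step after the thiolase, was at 107.5 CPM against 246.3 CPM in tumour cells (ratio 0.436, 0.388 to 0.490), Sqle, for squalene epoxidase, at 72.3 against 154.9 CPM (0.467, 0.404 to 0.537) and Scd2, for a desaturase, at 177.6 against 282.1 CPM (0.629, 0.574 to 0.689). The corresponding T cell ratios were 0.616 for Hmgcs1, 0.542 for Sqle and 0.580 for Scd2, and those of NK cells 0.952, 0.427 and 0.547.

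On the ketone list Oxct1, which activates acetoacetate in mitochondria, had ratios of 0.942, 0.810 and 0.763 in T cells, NK cells and macrophages, and Aacs, its cytosolic counterpart, of 0.620, 0.618 and 0.504. Of the pyruvate list 0 of 11, 0 of 9 and 0 of 11 genes passed 2-fold in T cells, NK cells and macrophages. The pyruvate carrier gene Mpc1 was 1.68-fold (1.53 to 1.83) higher in macrophages, while Mpc2 (0.980) and Pdha1 (0.789) were not higher. In T cells Mpc1, Mpc2 and Pdha1 had ratios of 0.939, 0.948 and 0.900.

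For beta-oxidation, Hadhb was higher in T cells (1 of 12 tested), Hadhb and Crot were higher and Acadvl lower in NK cells (3 of 10), and none of 12 passed in macrophages. Acadl, Hadha and Acadm had ratios of 0.873, 1.33 and 0.609 in T cells, 1.49, 1.90 and 0.652 in NK cells, and 0.732, 1.17 and 1.08 in macrophages. In the citrate list Me1, for malic enzyme, was lower in all 3 classes, with Idh2 in T cells and with Idh1 and Idh2 in NK cells, out of 8 tested. Mdh2 and Mdh1, for malate dehydrogenases, had ratios of 0.992 and 1.19 in T cells, 0.684 and 1.40 in NK cells, and 0.668 and 0.719 in macrophages. Among other thioesterases Acot1 was lower in T cells (1 of 4) and macrophages (1 of 5), and none of 4 passed in NK cells. Acot7, Acot9 and Acot13 had ratios of 1.09, 0.638 and 0.828 in T cells, 1.44, 0.680 and 1.01 in NK cells, and 0.792, 0.573 and 0.867 in macrophages. Of other users and regulators, Sirt5 was lower in macrophages (1 of 15), Kat2b in NK cells (1 of 13) and none in T cells. The acetyltransferase genes Naa50 and Crebbp and the sterol regulator gene Srebf2 had macrophage ratios of 0.782, 1.17 and 0.826, T cell ratios of 0.623, 1.23 and 0.816, and NK cell ratios of 0.693, 0.865 and 0.632.

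Across the tumour cells of the 6 tags, the range relative to the level was widest for Acss2, which rests on few UMIs. It was narrowest for Slc25a1. Acss2 ran from 1.56 CPM (D4) over a median of 1.95 to 3.26 CPM (D0), Acly from 39.4 (D4) over 45.8 to 48.2 (D0), and Slc25a1 from 38.1 (D4) over 38.9 to 40.9 (U2). Crat ran from 10.2 (D4) over 11.3 to 14.4 (U3), Acat1 from 37.3 (D4) over 40.7 to 45.6 (U3), and Acot8 from 15.3 (D0) over 17.6 to 21.7 (U3). Acat2 had the lowest value in D4 too, 20.9 CPM (16.5 to 26.0), with a median of 28.0 and a highest value of 31.5 CPM in D1. D4 thus held the lowest value of 6 of the 7 members that tumour cells expressed. The share of all genes that were lowest in D4 was not computed, so this count is not a result about the members. No tag stood apart from the other 5 by Dixon's limit for 6 samples for any member.

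The tumour cells were then divided by state at equal depth, since both the marker UMIs and the member UMIs grow with depth. Each of 4933 tumour cells was thinned at random to 10000 UMIs (279 shallower cells were left out) and binned by 0, 1 to 4 or at least 5 UMIs of a marker pair. Mki67 and Top2a, proliferation genes, gave 3052, 990 and 891 cells, and Car9 and Ndrg1, which respond to low oxygen, gave 741, 2490 and 1702 cells. Genes that the bins did not use moved with them: Cdk1 stood at 19.6, 128.5 and 482.1 CPM over the proliferation bins and Vegfa at 151.6, 233.6 and 399.8 CPM over the hypoxia bins. In these comparisons a gene was past the fold at 1.5 or more or 1/1.5 or less. Values of CPM are from all UMIs of the binned cells. Ratios within a tag, within the untagged cells, over the tags (edgeR) or within the bins of another marker pair are from all UMIs too. Other ratios are from the thinned UMIs unless they are said to be from all UMIs.

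In cycling tumour cells Acat2 was higher and Acss2 lower. Of the 7 members with enough counts, 1 was higher and 1 lower, while over all 11541 genes 15.6% were higher and 9.23% lower, so the counts are near the background. The median ratio was 1.20 over the members and 1.07 over all genes. Acat2 stood at 22.4, 32.5 and 37.1 CPM from no to many marker UMIs, with a ratio of 1.69 (1.47 to 1.93) between the outer bins. In cells with at least 5 marker UMIs it had 34.2 (U2), 37.9 (U3), 37.4 (U4), 39.2 (D0), 39.6 (D1) and 26.2 CPM (D4), against 20.7, 25.6, 26.3, 19.5, 25.6 and 21.0 CPM in cells with none. All 6 tags were higher, and 17 alternative settings gave ratios of 1.58 to 1.91. Over the tags, 1 of 7 members passed as higher (Acat2, log2 fold change 0.58 ± 0.09 SE, edgeR, adjusted p = 5.8e-08) and 2 as lower (Acss2 and Slc25a1), with 20.8% of 13322 genes higher and 19.3% lower.

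Acss2 stood at 2.37, 1.89 and 1.18 CPM over the same bins, from 181, 55 and 38 UMIs. The ratio was 0.329 (0.128 to 0.712) from 7 against 73 thinned UMIs, and 0.497 (0.341 to 0.709) from all UMIs. It was 0.642 (0.326 to 1.17) with another random seed of the thinning, and between 0.265 and 0.642 under all 17 alternatives. By tag the cells with at least 5 marker UMIs had 0.567 (U2), 4.74 (U3), 0 (U4), 1.27 (D0), 1.20 (D1) and 1.38 CPM (D4), against 2.17, 2.61, 3.41, 4.09, 2.12 and 1.65 CPM in cells with none. Lower values were found in 5 of 6 tags, U3 being the exception, and the difference passed over tags (log2 fold change -1.27 ± 0.36 SE, edgeR, adjusted p = 0.0025).

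The other members differed less with the proliferation genes. Acat1 was 1.39-fold (1.24 to 1.56) higher in cycling cells, Crat 1.37-fold (1.10 to 1.70) and Acly 1.20-fold (1.08 to 1.35). None of these passed over tags (edgeR, adjusted p = 0.0675, 0.245 and 0.905). For Acly the interval included 1 in each of the 6 tags, and the untagged cells had a ratio of 1.33 (1.18 to 1.49). Slc25a1 was lower, at 42.8, 39.4 and 34.7 CPM over the bins, with a ratio of 0.787 (0.691 to 0.895) and the same direction in 6 of 6 tags (edgeR, adjusted p = 2.5e-05). Acot8 did not differ beyond counting error (1.06, 0.883 to 1.27). Among the lists, Acot1, Acot2 and Acot13 were lower (3 of 5 other thioesterases), Oxct1 was higher (1.74, 1.62 to 1.87), while none of 8 citrate supply genes passed.

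With the hypoxia genes Car9 and Ndrg1, Acss2 was the member that differed most, but its size rests on few UMIs. Of 7 members 1 was higher and none lower, with a background of 7.28% higher and 9.94% lower over 11338 genes. The median ratio was 0.843 over the members and 0.940 over all genes. Acss2 stood at 1.98, 1.34 and 3.01 CPM from no to many marker UMIs, which is not a steady order. The ratio was 3.10 (1.47 to 7.53) from 57 against 8 thinned UMIs, but 1.52 (1.06 to 2.21) from all 137 against 41 UMIs of the same cells, and 1.63 (0.889 to 3.18) with another seed. Without U2 the ratio was 5.10 (1.86 to 19.5), with doublets kept 1.79 (0.937 to 3.69), and with Vegfa and Slc2a1 as the marker pair 0.854 (0.447 to 1.74), below 1.

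By tag, Acss2 had 2.49 (U2), 4.46 (U3), 3.22 (U4), 6.34 (D0) and 3.04 CPM (D1) in cells with at least 5 hypoxia marker UMIs, against 2.06, 4.03, 0.623, 5.07 and 1.39 CPM in cells with none. D4 had under 20 cells in a bin. Higher values were found in 5 of 5 tags, with a median ratio of 1.25, and the interval of each tag included 1. The test over tags did not pass (log2 fold change 0.68 ± 0.35 SE, edgeR, adjusted p = 0.198). A difference of Acss2 between hypoxia bins thus rests on few UMIs and varied with the draw, the tags kept and the marker pair. The cause of this variation was not tested.

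The mitochondrial thiolase Acat1 was lower with hypoxia markers, at 48.3, 42.9 and 36.0 CPM over the bins. Its ratio was 0.786 (0.686 to 0.902) and lower in 5 of 5 tags (edgeR, adjusted p = 0.0226). Over tags 1 of 7 members was lower (Acat1) and 1 higher (Slc25a1), with a background of 8.43% lower and 9.42% higher. Crat was at 13.2, 11.4 and 10.4 CPM (ratio 0.677, 0.529 to 0.871), lower in 4 of 5 tags, and it passed 1.5-fold without U2 or without D1, which made 2 members past the fold in place of 1. Acly (0.861, 0.753 to 0.987) and Acat2 (0.835, 0.705 to 0.992) were slightly lower, and the intervals of Slc25a1 (1.06, 0.922 to 1.22) and Acot8 (0.843, 0.685 to 1.04) included 1. From all UMIs Slc25a1 was at 1.15 (1.05 to 1.25), and over the tags at 1.25 (edgeR, adjusted p = 0.0452). Of the lists, Pdk1, a kinase that holds back pyruvate dehydrogenase and so the making of acetyl-CoA from pyruvate, was 2.27-fold (1.98 to 2.61) higher, the sole pyruvate gene of 12. Acot1 was 1.52-fold (1.16 to 1.99) higher, while Naa10 (0.660, 0.591 to 0.738) and Sirt5 (0.656, 0.482 to 0.899) were lower. None of the 11 lipid synthesis genes passed, Acaca (0.683) and Sqle (1.29) being the farthest.

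Cycling and hypoxia shared some cells, since 15.3% of the cells with at least 5 hypoxia marker UMIs were cycling against 20.1% of those with none. The 2 states were therefore crossed, with all UMIs. Acat2 was higher in cycling cells within each hypoxia bin, with ratios of 1.74 (1.44 to 2.09), 1.63 (1.47 to 1.80) and 1.61 (1.40 to 1.86) from no to many hypoxia marker UMIs. Acat1 was lower with hypoxia markers within each cycling bin, with ratios of 0.729, 0.803 and 0.774, whose intervals all lay below 1. Acss2 was 0.892 (0.398 to 1.87), 0.526 (0.270 to 0.959) and 0.407 (0.209 to 0.727) in cycling over non-cycling cells in the 3 hypoxia bins. With hypoxia markers it was 1.49 (0.957 to 2.38), 3.31 (1.14 to 13.1) and 0.676 (0.280 to 1.67) within the cycling bins, the last from 13 against 11 UMIs.

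A further division, added after the other values had been seen, used Hmgcs1 and Sqle, genes of sterol synthesis that rise when cells are short of sterol. It gave 955, 2451 and 1527 cells. Here 4 of 7 members were higher and none lower, against 11.8% higher and 5.84% lower over 11632 genes, and the median ratio was 1.92 over the members and 1.09 over all genes. The 4 were Acat2, Acss2, Slc25a1 and Acly, that is the cytosolic thiolase, the cytosolic acetate enzyme and both genes of the citrate route. Over tags 3 of the 7 passed as higher (Acat2, Slc25a1 and Acly) and none as lower, with a background of 5.31% higher and 5.23% lower, and Acss2 did not pass.

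Acat2 stood at 11.6, 22.9 and 45.2 CPM over the bins, with a ratio of 3.91 (3.17 to 4.86). In cells with at least 5 UMIs of the pair it had 42.4 (U2), 45.6 (U3), 44.9 (U4), 41.4 (D0), 48.7 (D1) and 50.2 CPM (D4), against 8.22, 21.3, 14.0, 10.7, 15.1 and 13.9 CPM in cells with none. All 6 tags were higher (edgeR, adjusted p = 4.7e-11). Slc25a1 stood at 25.9, 36.2 and 54.5 CPM (ratio 2.06, 1.79 to 2.38) and Acly at 29.7, 40.7 and 58.5 CPM (1.92, 1.67 to 2.21), each higher in 6 of 6 tags (edgeR, adjusted p = 4.4e-08 and 8.1e-07).

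Acss2 stood at 1.16, 1.71 and 2.89 CPM over the bins, with a ratio of 2.28 (1.24 to 4.46) from thinned UMIs and 2.49 (1.64 to 3.89) from all UMIs. By tag the cells with at least 5 UMIs had 2.02 (U2), 3.44 (U3), 3.21 (U4), 5.47 (D0), 2.61 (D1) and 2.34 CPM (D4), against 1.51, 1.25, 0, 3.56, 0.828 and 1.07 CPM in cells with none. All 6 tags were higher, 4 of them from 2 or fewer UMIs in the cells with none, and over the tags the log2 fold change of 0.96 ± 0.41 (SE) had an unadjusted p of 0.0271 and an adjusted p of 0.154 in edgeR. The 16 alternatives gave ratios of 2.16 to 4.92. The ratio was above 1 in each hypoxia bin, at 3.81 (1.15 to 19.8), 2.57 (1.17 to 6.39) and 2.17 (1.26 to 3.94), and in each cycling bin, at 2.67 (1.64 to 4.54), 2.84 (0.995 to 11.2) and 2.02 (0.563 to 10.9).

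Crat (1.29, 0.993 to 1.68) and Acat1 (1.30 from thinned UMIs, and 1.32 with an interval of 1.22 to 1.43 from all UMIs) were higher in 6 of 6 tags at sizes below 1.5-fold, and Acot8 did not differ beyond counting error (1.09, 0.895 to 1.33). Of the lipid synthesis list, 8 of the 9 tested genes that the division did not use were higher, among them Acaca, Fasn, Mvd, Idi1, Fdps and Scd2. Both sterol regulator genes were past the fold, Srebf2 at 2.30-fold (2.07 to 2.57) and Srebf1 at 1.57-fold (1.28 to 1.94). Of the citrate list 2 of 8 genes were higher, Idh1, for the cytosolic isocitrate dehydrogenase, at 2.14-fold (1.87 to 2.45) and Aco1 at 1.85-fold (1.41 to 2.45), and of the ketone list 1 of 4, Aacs, at 2.03-fold (1.61 to 2.57), against the 11.8% higher over all genes. None of the 12 beta-oxidation genes passed, and the thioesterase gene Acot1 was lower (0.348, 0.271 to 0.444). The cells with at least 5 UMIs were deeper before thinning, with a median of 26806 UMIs against 22710 in those with none, and held 18.1% cycling cells against 12.9%. The part of either in the result was not tested beyond the thinning and the crossed bins above.

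**Figure D3:**
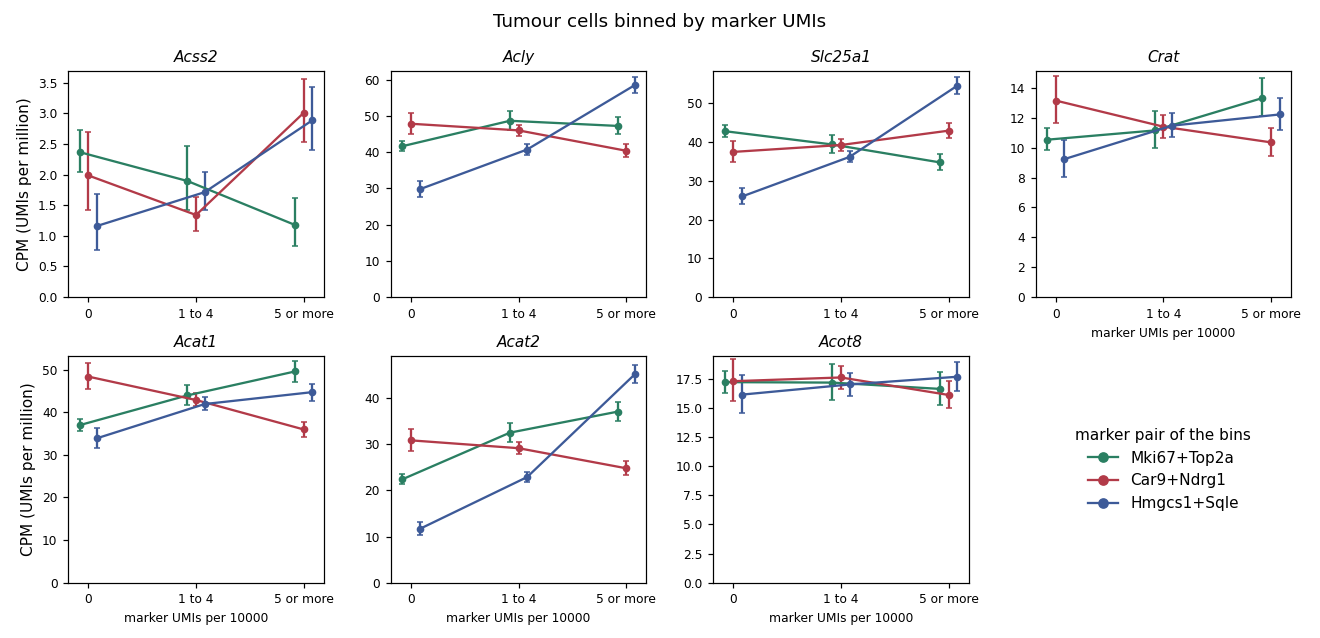
Level of 7 members in CPM from all UMIs (y axis from 0) in tumour cells with 0, 1 to 4 and at least 5 UMIs of a marker pair per 10000 UMIs (x axis), with exact Poisson 95% intervals. Green is Mki67+Top2a, red Car9+Ndrg1 and blue Hmgcs1+Sqle. Acat2 reaches 45.2 CPM with many Hmgcs1 and Sqle UMIs, and Acot8 stays between 16.1 and 17.7 CPM.

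**Figure D4:**
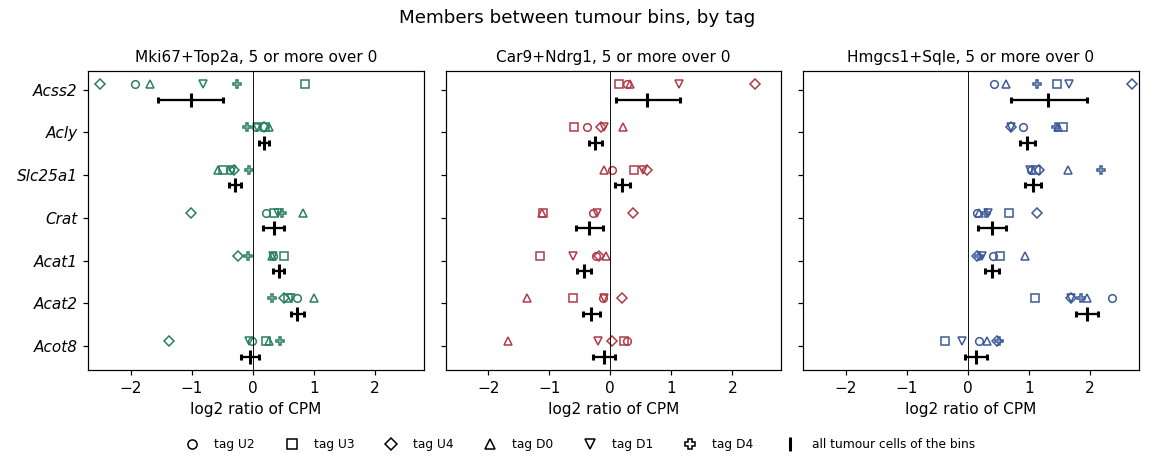
Log2 ratio of CPM from all UMIs (x axis) between tumour cells with at least 5 and with 0 marker UMIs, for 7 members (rows) and 3 marker pairs (panels), by tag (open symbols) and for all tumour cells with 95% interval (black). For Acss2 the U4 symbols at the left and right edges stand for bins with 0 UMIs. With Hmgcs1 and Sqle, Acss2, Acly, Slc25a1 and Acat2 are above 0 in 6 of 6 tags.

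The genes most like each member over the 13 groups of tumour cells made by tag and hypoxia bin (with at least 50 cells) were ranked among 7959 genes by Pearson's correlation of log2(CPM + 1). Acat2 was most like the cell division genes Cdca3 (r = 0.97) and Cenpm (0.95), and Tmem11 (0.94). Acly was most like Nup85 (0.98), Mrps34 (0.94) and Tecr (0.93). Slc25a1 had its nearest genes in Bmp2 (0.85), Zfand2b (0.84) and Snx7 (0.83), and Crat in Rfwd3 (0.92), Wisp2 (0.85) and Edem2 (0.85). Those of Acat1 were Pus7 (0.89), Mrpl16 (0.87) and Baz1b (0.86), and those of Acot8 Iqcb1 (0.88), Txndc15 (0.84) and Fam173a (0.83). The groups share a lane, tags and bins, and values this high are picked from many genes over few points, so they describe these groups and nothing more. Acss2 and Acss1 had too few UMIs to be ranked.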

How the data were processed

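The authors deposited 1 matrix of raw UMI counts for the pool, with gene and antibody tag rows in the same file. Reads were counted with Cell Ranger on the mm10 build, per the submitters' processing notes. The version was 3.1.0, per the file headers. The sources used here give neither the annotation nor the strand setting of the counting. There were 0 columns of values of other samples.

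Barcodes were kept (8784) where they held 500 genes or more and a mitochondrial share of UMIs below 15%. Tags were called by HTODemux (Seurat 5.3.0, R 4.3.3, positive quantile 0.99, seed 42), 865 doublets were removed, and cells with 1 tag (5590) or none (2329) stayed in. Doublets of cells with the same tag, or with an untagged cell, are not seen by this call. Classes came from the marker rules given in the report. UMIs were summed per class, tag or bin with Python 3.11.15, numpy 2.4.6 and scipy 1.17.1 and given as CPM with exact Poisson 95% intervals. Ratios have exact intervals from the binomial (Clopper-Pearson) interval of the split of UMIs, and a count of 0 has a limit of 3 counts. PCR copies are collapsed by UMI, and all intervals cover counting error only. The test over tags (edgeR 4.0.16, at least 20 cells per tag and group and 10 summed UMIs per gene, TMM scaling, all UMIs of binned cells) departs from the planned description without a test. Scripts were tested on simulated data with known folds.

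The members, the pathway lists and the marker pairs were chosen with earlier results of these data known. The genes named were all 8 members, the 3 genes of each pathway list with the most UMIs (classes), the 2 with the largest ratio in either direction (tumour bins) and the 3 most alike genes per member. The Hmgcs1 and Sqle division, the second marker pairs for hypoxia and cycling and the CCAAT motif were added after seeing the data, and list genes named as past the fold or for their family (Acss3, Acat3, Gss, Idh1, Srebf1) also go beyond that rule. Values of some list genes are not reported here. Gene positions are from GENCODE M21 (30934 of 31053 identifiers matched) and promoters from RefSeq on GRCm38.p6. Alternatives covered the filters, doublets, keratin-bearing cells, class thresholds, untagged cells, scaling, expected counts, weighting of tags, depth and seed of thinning, the upper bin and each tag left out in turn.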

Additional observations from a re-analysis of the deposited data

How the results depend on the processing

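Of 686 gene ratios under an alternative setting, 25 moved past their own 95% interval. Among ratios whose main interval excluded 1, 1 changed direction, that of Acss2 between hypoxia bins with Vegfa and Slc2a1 as the markers (0.854). Ratios whose main interval included 1 were not counted in this way, and several lay on both sides of 1. Acss2 in NK cells over tumour cells, for example, was above 1 in 6 of 16 alternatives and below it in 10. Of 98 counts of members past the fold, 15 moved by over 1.5 times. In T cells the count of 0 became 1 with doublets kept and with a minimum of 1 expected UMI (Acss2, higher), and 2 without keratin-bearing cells (Slc25a1 and Acat2, lower). In NK cells the count of 0 became 1 without keratin-bearing cells, with class thresholds doubled and with tags weighted equally (Acat2, lower each time). In macrophages it was 2 in place of 1 with tags weighted equally, which added Acss2 as lower. For hypoxia the count of 1 became 5 at 5000 UMIs (Acss2 higher, Crat, Acat1, Acat2 and Acot8 lower), 3 with an upper bin of 10 UMIs (Acss2 higher, Crat and Acat1 lower), 0 with a minimum of 20 expected UMIs, which leaves Acss2 out, and 2 with tags weighted equally, and it ran from 1 to 2 when each tag was left out. For cycling the count of 2 became 4 with an upper bin of 10 UMIs (Crat and Acat1 added) and 1 with a minimum of 20 expected UMIs. Leaving out each tag gave 2 members for cycling, 4 for the Hmgcs1 and Sqle division, 0 for T and NK cells and 1 for macrophages every time. Apart from alternatives that drop genes by their counts, the cause of these moves was not tested. Acss2 rests on few counts, with 274 UMIs in all tumour cells and 20 in T cells. The fit paired within tags, with the tag as replicate block, gave 42 gene ratios, of which 39 lay within the interval of the pooled ratio and 3 moved past it: Acly (1.01) and Acat1 (1.14) between cycling bins and Slc25a1 (1.25) between hypoxia bins. ACSS2i and vehicle were not compared, since no source used here gives the arm of a tag.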

Other observations

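Cells that carried no tag made up 35.5% of the tumour class, and their members were close to those of tagged tumour cells, with 2.15 CPM of Acss2 (1.73 to 2.63), 27.3 CPM of Acat2 (25.8 to 28.9) and 0 UMIs of Acss1. Pdp2, for a phosphatase that switches pyruvate dehydrogenase back on, was 2.62-fold (1.70 to 4.19) higher with Hmgcs1 and Sqle. Of the 12 tested pyruvate genes 2 were higher, Pdp2 and the kinase gene Pdk3. The kinase gene Pdk2 was lower (0.478, 0.214 to 1.05). Over all genes 11.8% were higher and 5.84% lower.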
